A study of Mus musculus with 10 samples.

Results

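The 10 genes described here encode ligands, receptors and SMAD proteins of the TGF-beta pathway, and they were taken by name from the 51707 genes in the deposited quantifications. They are the ligand genes Tgfb1, Tgfb2, Tgfb3 and Inhba, the receptor genes Tgfbr1, Tgfbr2 and Tgfbr3, and the SMAD genes Smad2, Smad3 and Smad7. All 10 were found and all 10 passed the filter on low counts. They were read in 10 RNA sequencing libraries of epithelial cells, sorted by flow cytometry from pancreatic ductal adenocarcinomas (PDAC) that grew in the mouse pancreas.

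In both groups the tumours came from T6-LOH organoids of the KPC model (a mouse model of PDAC), transplanted together with pancreatic stellate cells (PSCs), which can turn into fibroblasts. In 5 libraries (Egfr KO PSC) the PSCs were PSC4 EGFR KO B4, a single Egfr knockout clone, and in the other 5 (Egfr WT PSC) they were PSC4 ROSA (egfr), a control from the same PSC4 line. The epithelial cells carried no Egfr knockout in either group, so Egfr was not used as a check of the labels. The series title names NSG mice as hosts, which lack lymphocytes and keep myeloid cells, whereas the strain label is C57BL/6J throughout, and the labels do not specify host or graft. No host age was used here. As the knockout is 1 clone, Egfr loss and clonal traits cannot be told apart. The number that opens each library's title runs from 11 to 15 in the Egfr KO PSC group and from 6 to 10 in the Egfr WT PSC group, and whatever it marks cannot be told apart from the PSC genotype either. Whether the libraries come from different mice is not labelled, and the p-values reflect only how far these libraries vary.

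TGF-beta ligands are secreted in a latent form and, once released, bind the type II receptor TGFBR2, which recruits and activates the type I receptor TGFBR1. The activated receptor phosphorylates SMAD2 and SMAD3, which join SMAD4 and enter the nucleus to regulate target genes, while SMAD7 is induced by the pathway and blocks it. Activin A, a dimer of the protein encoded by Inhba, uses other receptors and reaches the same SMAD2 and SMAD3. In pancreatic epithelium the pathway is known for restraining growth in early lesions and for promoting epithelial-mesenchymal transition in carcinoma.

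Libraries held between 39534100 and 53816100 estimated reads in named genes, so the 10 genes were measured at good depth except Tgfb1 (106 to 164 reads per library) and Tgfb2 (202 to 505 reads). Reads of the other 8 ranged from 566 per library for the lowest of Tgfbr3 to 16749 for the highest of Inhba. The epithelial label was checked against markers. Epcam had 162.9 to 253 TPM in Egfr KO PSC libraries and 115.8 to 292 TPM in Egfr WT PSC libraries, and the keratin genes Krt7 and Krt8 were at 1079 TPM or more in all 10. Of 8 lymphocyte markers Cd3g was listed at 0 in every library, and all 8 summed to at most 0.181 TPM in Egfr KO PSC libraries and 0.216 TPM in Egfr WT PSC libraries. Fibroblast and stellate cell markers were present: the 14 markers summed to 155 to 440.1 TPM (median 200.1) in Egfr KO PSC libraries and to 159.6 to 376 TPM (median 272) in Egfr WT PSC libraries. Acinar markers were present too, with higher medians. The 8 acinar markers summed to 141 to 618 TPM (median 531) in Egfr KO PSC libraries and to 215 to 556 TPM (median 311) in Egfr WT PSC libraries.

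Both signalling receptors occur in coding forms that differ by a short stretch, shown because the receptor levels below are sums over these forms. Each sequence is read from GENCODE M21 transcripts (build GRCm38) on the sense strand, with the stretch that is present in only some transcripts in capitals and 18 bases of neighbouring exon on either side in lower case. The Tgfbr2 stretch is a whole exon of 75 bases (chr9:116158271-116158345, minus strand), present in transcript Tgfbr2-202 and absent from Tgfbr2-201. The Tgfbr1 stretch has 12 bases (chr4:47393247-47393258, plus strand), present in Tgfbr1-201 and absent from Tgfbr1-202. Both lengths are multiples of 3, 25 and 4 codons, and keep the reading frame.
Tgfbr2-202: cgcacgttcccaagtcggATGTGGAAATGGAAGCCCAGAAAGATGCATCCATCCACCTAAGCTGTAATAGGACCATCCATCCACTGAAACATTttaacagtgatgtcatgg
Tgfbr1-201: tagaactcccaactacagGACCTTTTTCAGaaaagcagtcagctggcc

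Among the ligands, Tgfb3 and Inhba were abundant and Tgfb1 and Tgfb2 were close to the bottom of the range. The levels are deposited TPM values (transcript abundance scaled to a fixed total per library), summed over the transcripts of a gene. Tgfb3 had 39.9, 46.0, 28.0, 50.8 and 35.8 TPM in Egfr KO PSC libraries 1 to 5, against 42.6, 34.7, 44.4, 54.4 and 40.8 TPM in Egfr WT PSC libraries 1 to 5. The groups overlapped throughout. Tgfb3 made up 82.1% to 92.3% of the summed TPM of Tgfb1, Tgfb2 and Tgfb3 in the 10 libraries, and all of its TPM was in the single transcript Tgfb3-201.

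Tgfb1, the ligand gene most widely expressed by immune and stromal cells, had 2.94, 2.42, 4.07, 1.85 and 2.08 TPM with Egfr KO PSCs, against 2.88, 1.85, 2.59, 1.99 and 2.67 TPM with Egfr WT PSCs. Its highest library was Egfr KO PSC replicate 3, and the groups overlapped. Its coding transcript, Tgfb1-201, carried only 44.2 ± 18.4% of that TPM with Egfr KO PSCs and 43.7 ± 10.9% with Egfr WT PSCs (SD, n = 5 each), or 0.796 to 1.40 TPM in a library. Tgfb1-204, a retained-intron transcript, was assigned 26.1% to 47.1%. Tgfb1-205 took up to 27.8% in a library on an average of 1.36 reads, and Tgfb1-203 up to 16.7% on an average of 2.37 reads. The coding share and the summed TPM of Tgfb1 therefore rest in part on very few reads.

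Tgfb2, whose protein binds the type II receptor weakly without the co-receptor TGFBR3, had 2.70, 1.42, 2.03, 2.82 and 2.19 TPM with Egfr KO PSCs, against 2.06, 1.51, 2.73, 2.85 and 4.42 TPM with Egfr WT PSCs. The highest value was in Egfr WT PSC replicate 5 and the lowest in Egfr KO PSC replicate 2. Coding transcripts held 89.7 ± 11.6% of the Tgfb2 TPM with Egfr KO PSCs and 73.1 ± 6.02% with Egfr WT PSCs (SD, n = 5 each). The other transcripts averaged at most 7.10 reads each, and this share was not tested.

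Inhba varied most, by 7.77 times between its highest and lowest library. It had 64.9, 96.2, 121, 319 and 49.4 TPM with Egfr KO PSCs, against 41.1, 64.5, 43.1, 138 and 114 TPM with Egfr WT PSCs. Egfr KO PSC replicate 4 stood above all other libraries, and the remaining 4 of that group lay within the range of the Egfr WT PSC libraries. Transcript Inhba-202, with 3 exons and a last exon of 969 bases, took 90.6% to 93.0% of the TPM. Inhba-201, with 5 exons and a last exon of 5379 bases, took 6.97% to 9.39%.

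**Figure D1:**
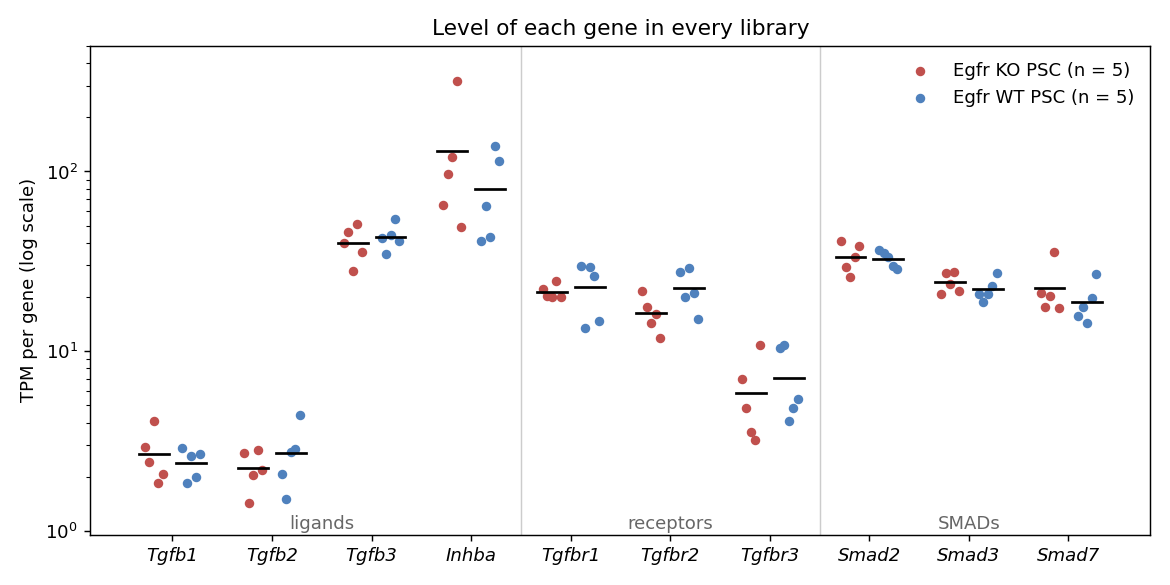
TPM per gene on a log axis for the 10 genes, grouped as ligands, receptors and SMADs; each point is a library, Egfr KO PSC at the left and Egfr WT PSC at the right of each gene, and bars are group means of 5 libraries. Tgfb1 and Tgfb2 lie between 1.42 and 4.42 TPM, Inhba spreads from 41.1 to 319 TPM, and the groups overlap for every gene.

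The receptor genes lay at intermediate levels. Tgfbr1, the type I receptor, had 22.2, 20.2, 20.0, 24.5 and 20.0 TPM with Egfr KO PSCs, against 29.9, 13.4, 29.4, 26.1 and 14.7 TPM with Egfr WT PSCs. The Egfr KO PSC libraries lay close together, at an SD of 1.99 TPM, inside the wider range of the Egfr WT PSC libraries, with an SD of 8.02 TPM. These spreads were not compared by a test. Transcripts with the 12-base stretch printed above carried 88.7% to 95.5% of the TPM of those that span it, with no separation between the groups. Tgfbr1-201 and Tgfbr1-202 also differ in the last exon (4280 and 1482 bases), so this split does not rest on the 12-base stretch alone.

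Tgfbr2, the type II receptor, had 21.6, 17.6, 14.3, 16.0 and 11.8 TPM with Egfr KO PSCs, against 27.5, 19.9, 29.2, 21.2 and 15.1 TPM with Egfr WT PSCs. Egfr WT PSC replicates 3 and 1 were highest and Egfr KO PSC replicates 5 and 3 lowest. The groups overlapped, with Egfr KO PSC replicate 1 above 3 of the Egfr WT PSC libraries. The ratio of Tgfbr2 to Tgfbr1 TPM was 0.760 ± 0.159 with Egfr KO PSCs and 1.05 ± 0.258 with Egfr WT PSCs (SD, n = 5 each), and it was not tested.

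The 2 Tgfbr2 transcripts contributed similar amounts. Tgfbr2-202, with the 75-base exon printed above, had 9.87, 8.29, 9.33, 8.41 and 6.10 TPM with Egfr KO PSCs, against 10.2, 8.90, 10.3, 10.1 and 11.3 TPM with Egfr WT PSCs. Tgfbr2-201, without the exon, had 11.7, 9.27, 4.95, 7.58 and 5.67 TPM with Egfr KO PSCs, against 17.4, 11.0, 18.8, 11.1 and 3.86 TPM with Egfr WT PSCs. The short form spread more, and Egfr WT PSC replicate 5 had the lowest value of all. In human cells the receptor form with the matching insertion is known as TbetaRII-B and binds TGF-beta 2 without the co-receptor. The transcripts also differ at the 3′ end, with a last exon of 6265 bases in Tgfbr2-202 and 1629 bases in Tgfbr2-201, so the split between them does not rest on the 75-base exon alone.

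**Figure D2:**
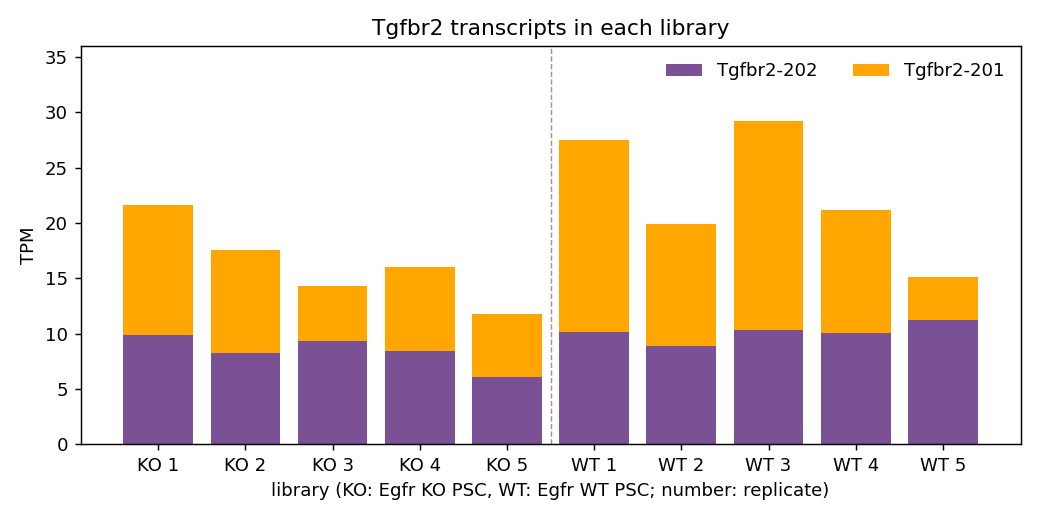
TPM of the Tgfbr2 transcripts, stacked, in each of the 10 libraries, with Egfr KO PSC libraries at the left of the dashed line and Egfr WT PSC libraries at the right. Tgfbr2-202 stays between 6.10 and 11.3 TPM, while Tgfbr2-201 runs from 3.86 TPM in Egfr WT PSC replicate 5 to 18.8 TPM in Egfr WT PSC replicate 3.

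Tgfbr3 encodes betaglycan, the co-receptor that presents ligands, TGF-beta 2 above all, to the type II receptor. It had 7.00, 4.81, 3.55, 3.20 and 10.8 TPM with Egfr KO PSCs, against 10.4, 10.8, 4.09, 4.81 and 5.42 TPM with Egfr WT PSCs. High and low libraries occurred in both groups, and nothing lay between 7.00 and 10.4 TPM. Tgfbr3-201 held 88.4% to 100% of the TPM.

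Smad2 and Smad3 had the smallest ratios of highest to lowest library among the 10 genes. Smad2, a receptor-activated SMAD, had 41.1, 29.2, 26.0, 33.3 and 38.4 TPM with Egfr KO PSCs, against 36.5, 35.2, 33.3, 29.8 and 28.8 TPM with Egfr WT PSCs. Both the highest and the lowest value belonged to the Egfr KO PSC group. Some Smad2 transcripts skip a coding exon of 90 bases, and the protein made from them is known to bind DNA directly, which the full-length protein does not. Transcripts with this exon carried 68.3 ± 3.27% of the TPM of those that span it with Egfr KO PSCs and 68.0 ± 1.96% with Egfr WT PSCs (SD, n = 5 each). Smad2-201, with the exon, and Smad2-202, without it, also differ in the last exon (688 and 124 bases). The split therefore does not rest on the 90-base exon alone.

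Smad3, the other receptor-activated SMAD, had 20.9, 27.1, 23.7, 27.5 and 21.6 TPM with Egfr KO PSCs, against 20.7, 18.7, 20.9, 23.1 and 27.3 TPM with Egfr WT PSCs. Its highest and lowest library differed by 1.47 times, less than for any of the other 9 genes. The processed transcript Smad3-203 took 11.1% to 28.3% of the TPM on an average of 40.3 reads, and Smad3-201, which is coding, took nearly all of the rest.

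Smad7, the inhibitory SMAD, had 20.9, 17.6, 20.1, 35.8 and 17.5 TPM with Egfr KO PSCs, against 15.8, 17.6, 14.2, 19.8 and 26.8 TPM with Egfr WT PSCs. Its highest library was Egfr KO PSC replicate 4, as for Inhba, followed by Egfr WT PSC replicate 5. The other 8 libraries lay between 14.2 and 20.9 TPM.

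Ordered by mean TPM over the 10 libraries, the genes ran Inhba (105), Tgfb3 (41.7), Smad2 (33.1), Smad3 (23.1), Tgfbr1 (22.0), Smad7 (20.6), Tgfbr2 (19.4), Tgfbr3 (6.48), Tgfb1 (2.53) and Tgfb2 (2.47). Between neighbours in this order the ranges overlapped at every step except from Tgfbr2 to Tgfbr3. Within libraries, Inhba was above Tgfb3 in 8 of 10 and Smad2 above Smad3 in 10 of 10. Smad3, Tgfbr1, Smad7 and Tgfbr2 could not be ordered, with the higher mean on top in 5 or 6 of 10 libraries at each step, and Tgfb1 was above Tgfb2 in 5 of 10.

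The study set tumour epithelial cells grown beside Egfr KO PSCs against those grown beside Egfr WT PSCs. It was tested on the estimated counts with edgeR's quasi-likelihood test across 17495 genes, with Benjamini-Hochberg adjustment and a threshold of 0.05, and fold changes are Egfr KO PSC over Egfr WT PSC. None of the 10 genes passed, and neither did any other gene (0% of genes tested). DESeq2 called 132 genes (0.655% of those with an adjusted p) and limma voom with sample weights 3 (0.0171%), and none of the 10 was among them. At an unadjusted edgeR p under 0.05 there was 1 gene of the 10, against 1426 of all genes tested (8.15%). TPM of the groups did not overlap in 0 of the 10 genes and in 222 of all genes tested (1.27%). Of the 10 genes, 5 had a positive and 5 a negative log2 fold change, with a median of 0.0016, against 0.00041 for all genes tested.

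The gene with an unadjusted p under 0.05 was Tgfbr2 (log2 fold change -0.36, SE 0.13, 95% confidence interval -0.66 to -0.07, unadjusted p = 0.0192, edgeR adjusted p = 0.509), in a direction that 4.60% of all genes tested shared at that level. Its mean was 16.2 ± 3.69 TPM with Egfr KO PSCs and 22.6 ± 5.75 TPM with Egfr WT PSCs (SD, n = 5 each). The log2 fold change kept its sign in each of the 10 fits that left out 1 library (-0.46 to -0.28). Fibroblasts express Tgfbr2, and 11 of 14 fibroblast and stellate cell markers also had negative log2 fold changes, with a median of -0.48. The part of such cells in the Tgfbr2 value was not tested. With the score of the fibroblast and stellate cell markers as a covariate, Tgfbr2 was at -0.49 with an unadjusted edgeR p of 0.0146 (edgeR adjusted p = 0.339). In that fit 2092 of 17495 genes had an unadjusted p under 0.05. Macrophage markers were lower in 7 of 10 tested, with a median of -0.96. The 11 listed macrophage markers summed to 34.4 to 43.5 TPM (median 36.3) with Egfr KO PSCs and to 26.6 to 72.9 TPM (median 39.3) with Egfr WT PSCs. With the macrophage score as a covariate Tgfbr2 was at -0.34 with an unadjusted edgeR p of 0.0840 (edgeR adjusted p = 0.987). In that fit 748 of 17495 genes had an unadjusted p under 0.05. The macrophage score gave the 1 alternative of 19 in which the unadjusted p of Tgfbr2 was not under 0.05. Fewer cells of a type and less RNA per cell cannot be told apart in such samples.

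Inhba had the largest log2 fold change of the 10 genes and the widest interval, which included 0 (0.70, SE 0.50, 95% confidence interval -0.38 to 1.78, edgeR adjusted p = 0.740). Without Egfr KO PSC replicate 4 it was 0.08. Smad7 depended on the same library, at 0.28 (95% confidence interval -0.22 to 0.78, edgeR adjusted p = 0.774) with it and 0.06 without it. Without Egfr WT PSC replicate 5 Smad7 was at 0.46 (edgeR adjusted p = 0.461), and with the score of the fibroblast and stellate cell markers at 0.51. For Tgfbr3 the value was -0.24 (95% confidence interval -1.13 to 0.64), and it was -0.61 without Egfr KO PSC replicate 5 and 0.02 without Egfr WT PSC replicate 2. Under the 9 alternatives that kept all libraries it lay between -0.45 and -0.08.

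For 6 genes the log2 fold change lay close to 0. The intervals included 0 for Smad2 (0.04, 95% confidence interval -0.28 to 0.36), Smad3 (0.12, -0.19 to 0.43), Tgfb3 (-0.08, -0.42 to 0.26), Tgfb1 (0.06, -0.34 to 0.47) and Tgfbr1 (-0.04, -0.46 to 0.38). Those of Tgfb3 and Tgfbr1 also included the Tgfbr2 value of -0.36. For Tgfb2 the interval was wider (-0.04, -0.71 to 0.62), and its value lay between -0.53 with the macrophage score and 0.38 with the fibroblast score. It was -0.25 with average transcript lengths taken into account and 0.28 without Egfr WT PSC replicate 5.

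**Figure D3:**
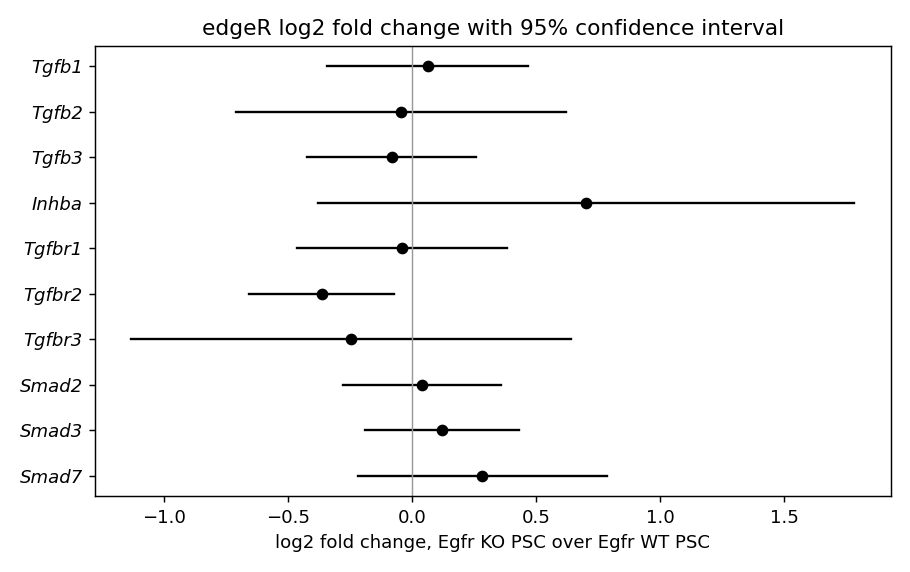
Log2 fold change, Egfr KO PSC over Egfr WT PSC, from edgeR for each of the 10 genes, as points with 95% confidence intervals as lines. Only the interval of Tgfbr2 (-0.66 to -0.07) leaves out 0, and that gene has an adjusted p of 0.509 over all genes tested.

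Transcript shares were compared for the 9 genes with more than 1 transcript in use. The share of the main transcript differed between the groups in none of them at an adjusted p under 0.05 by exact two-sided permutation tests, in which 5 against 5 cannot give a p below 0.00794, and 0 of 9 had an unadjusted p under 0.05. The lowest exact p was that of Tgfb2-201, at 60.1 ± 12.8% with Egfr KO PSCs and 51.7 ± 8.43% with Egfr WT PSCs (SD, n = 5 each, exact p = 0.278, adjusted p = 0.827). That difference of 8.44 percentage points in the share of TPM was 0.036 points in the share of estimated reads. Tgfbr2-201 took 47.5 ± 7.75% with Egfr KO PSCs and 52.2 ± 15.8% with Egfr WT PSCs (SD, n = 5 each, exact p = 0.563, adjusted p = 0.827). Its difference of -4.73 percentage points was -11.4 without Egfr WT PSC replicate 5 (exact permutation p = 0.0476, adjusted p = 0.429) and -1.52 without Egfr KO PSC replicate 3.

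Whether the genes varied together across the 10 libraries was examined for all 45 pairs in log2 CPM (counts scaled to library size by edgeR). Permutation tests were used, an addition made after the data were seen. Inhba and Smad3 had a Pearson r of 0.81 (permutation p = 0.00350) and a Spearman rho of 0.77 (permutation p = 0.0120). Inhba and Smad7 had an r of 0.82 (permutation p = 0.00366) and a rho of 0.62 (permutation p = 0.0607). After adjustment over the 45 pairs both values of r had an adjusted permutation p of 0.0823 and both values of rho one of 0.422, so no pair passed.

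Leaving out Egfr KO PSC replicate 4 and Egfr WT PSC replicate 1, the libraries farthest from the median of Inhba, gave an r of 0.75 for Smad3 and 0.54 for Smad7. As deviations from the group means, the r was 0.79 for Smad3 and 0.80 for Smad7. The pairs were picked by their p in these same libraries, so these values are no separate check. Tgfbr3 and Smad2 followed, with an r of 0.77 (permutation p = 0.0126, adjusted p = 0.153).

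**Figure D4:**
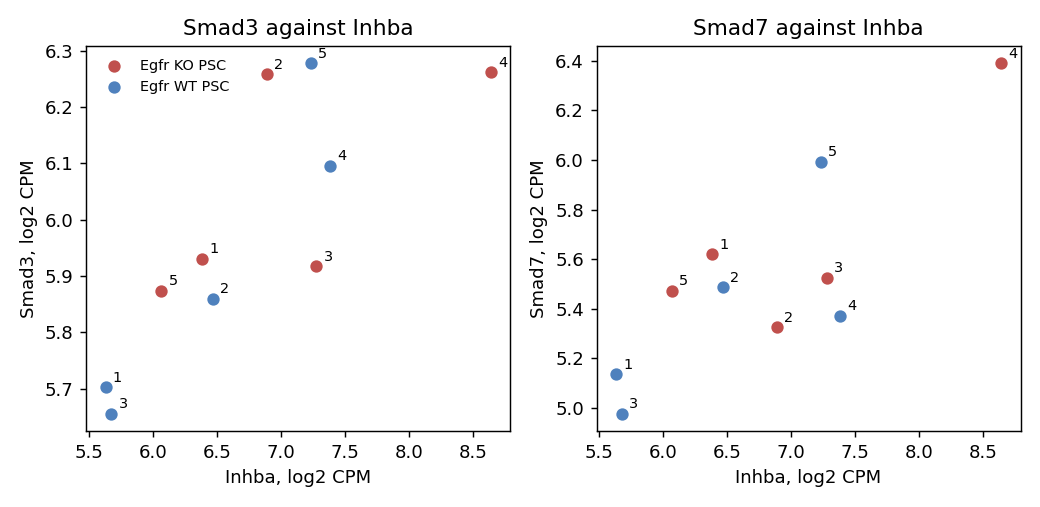
Log2 CPM of Smad3 (left panel) and Smad7 (right panel) against Inhba in the 10 libraries, coloured by group and numbered by replicate. Egfr KO PSC replicate 4 is highest for Inhba and Smad7, and Egfr WT PSC replicates 1 and 3 are lowest for all 3 genes.

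The genes most like the ligand, receptor and SMAD gene of lowest p were sought among 10464 genes averaging 5 CPM or more, by Pearson correlation of log2 CPM over the same 10 libraries. For Inhba they were Zfp469 (r = 0.95), Zdhhc12 (r = 0.94) and Ndst3 (r = 0.94). For Tgfbr2 they were Tk2, a mitochondrial thymidine kinase gene (r = 0.98), Tm9sf2 (r = 0.96) and Nuak2, a kinase gene (r = 0.96). For Smad7 they were Bmp2, a BMP ligand gene (r = 0.97), Dock8 (r = 0.96) and Prdx5, a peroxiredoxin gene (r = 0.95). Each is among the highest of 10464 values over 10 libraries and is given as a description.

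Around the 10 genes, 81 further genes of the pathway were examined in 5 lists, and none passed the edgeR test (0% of all genes tested). The lists were chosen with earlier results of these data known, so their counts are descriptions. In the list of activin family ligands and antagonists 7 of 12 genes were tested, 3 with a positive and 4 with a negative log2 fold change (median -0.14). The lowest p was that of Gdf15, whose product is a stress-induced ligand and neither an activin nor an activin antagonist. Gdf15 was at 1.46 ± 0.827 TPM with Egfr KO PSCs and 2.76 ± 1.72 TPM with Egfr WT PSCs (log2 fold change -0.97, edgeR adjusted p = 0.647). Fst, which encodes follistatin, an activin antagonist, was at 18.4 ± 9.06 TPM with Egfr KO PSCs and 15.4 ± 2.59 TPM with Egfr WT PSCs. Fstl3, a related antagonist gene, was at 9.78 ± 0.866 TPM with Egfr KO PSCs and 11.0 ± 2.10 TPM with Egfr WT PSCs. Inha, the inhibin alpha subunit gene, was near 1 TPM in both groups, at 0.804 ± 0.297 TPM with Egfr KO PSCs and 0.995 ± 0.381 TPM with Egfr WT PSCs.

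Genes that hold TGF-beta latent or release it were measured in full, with 4 of 12 positive and 8 of 12 negative (median -0.15). The integrin gene Itgb8, whose product with the alpha-v chain activates latent TGF-beta, had 1.16, 0.867, 0.974, 0.858 and 1.25 TPM with Egfr KO PSCs, against 1.65, 1.51, 1.53, 1.51 and 1.57 TPM with Egfr WT PSCs. All 5 Egfr KO PSC libraries were below all 5 Egfr WT PSC libraries (edgeR log2 fold change -0.57, adjusted p = 0.409). It was the 1 gene of the 12 whose groups did not overlap in TPM, against 1.27% of all genes tested. Dcn, which encodes the TGF-beta-binding proteoglycan decorin and is also in the fibroblast list, was at 5.79 ± 3.11 TPM with Egfr KO PSCs and 11.8 ± 5.75 TPM with Egfr WT PSCs (edgeR adjusted p = 0.578). The latent TGF-beta binding protein gene Ltbp4 was at 16.5 ± 5.46 TPM with Egfr KO PSCs and 23.9 ± 2.36 TPM with Egfr WT PSCs, and Furin, the protease gene for the propeptide, at 63.6 ± 16.7 TPM with Egfr KO PSCs and 50.8 ± 14.5 TPM with Egfr WT PSCs.

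Of the other receptors and co-receptors 11 of 12 were matched and tested, 5 positive and 6 negative (median -0.02). Dab2, an endocytic adaptor gene, was at 4.80 ± 1.85 TPM with Egfr KO PSCs and 7.30 ± 1.72 TPM with Egfr WT PSCs (log2 fold change -0.70, edgeR adjusted p = 0.563). The endothelial receptor genes Acvrl1 (1.66 ± 0.542 TPM with Egfr KO PSCs and 2.28 ± 0.702 TPM with Egfr WT PSCs) and Eng (4.18 ± 2.53 TPM with Egfr KO PSCs and 5.40 ± 0.685 TPM with Egfr WT PSCs) were low. All 8 endothelial markers had negative log2 fold changes in the same libraries, with a median of -0.28, and their part in these values was not tested. Zfyve9, the gene of a SMAD anchor, was at 1.08 ± 0.0884 TPM with Egfr KO PSCs and 0.903 ± 0.160 TPM with Egfr WT PSCs.

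Among the other SMADs and SMAD regulators 9 of 17 were positive and 8 of 17 negative (median 0.04). Smad9, a BMP SMAD gene, rested on 1 to 37 reads per library, at 0.107 ± 0.0525 TPM with Egfr KO PSCs and 0.0338 ± 0.0299 TPM with Egfr WT PSCs (edgeR log2 fold change 1.68, adjusted p = 0.471). The SMAD co-repressor gene Tgif1 was far more abundant, at 361 ± 32.9 TPM with Egfr KO PSCs and 336 ± 38.0 TPM with Egfr WT PSCs. Its relative Tgif2 was at 6.15 ± 3.07 TPM with Egfr KO PSCs and 10.6 ± 5.32 TPM with Egfr WT PSCs (edgeR adjusted p = 0.598), and the BMP SMAD gene Smad5 at 15.1 ± 1.69 TPM with Egfr KO PSCs and 12.9 ± 1.88 TPM with Egfr WT PSCs.

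Known epithelial target genes of TGF-beta had 19 of 29 positive and 10 of 29 negative log2 fold changes (median 0.23), with 4 higher and 1 lower at an unadjusted edgeR p under 0.05, against 3.55% and 4.60% of all genes tested. TPM of the groups did not overlap in 2 of the 29, Id2 and Id3, against 1.27% of all genes tested. As this list was chosen with earlier results of these data known, these shares are a description only. The 4 higher genes included Id1, Id2 and Id3, inhibitors of bHLH transcription factors that BMP signalling induces. The list does not separate genes that TGF-beta raises from genes that it lowers, so its counts give no direction of pathway activity. Id3 was at 160.1 ± 50.6 TPM with Egfr KO PSCs and 72.3 ± 6.79 TPM with Egfr WT PSCs (edgeR adjusted p = 0.225). Id2 was at 812 ± 261 TPM with Egfr KO PSCs and 472 ± 59.8 TPM with Egfr WT PSCs (edgeR adjusted p = 0.396). Pthlh, which encodes the parathyroid hormone-related peptide, was at 83.1 ± 73.2 TPM with Egfr KO PSCs and 29.4 ± 10.7 TPM with Egfr WT PSCs (edgeR adjusted p = 0.495). Only Egfr KO PSC replicates 3 and 4 were high, with 34.4, 30.4, 190, 129 and 31.1 TPM in replicates 1 to 5. The Egfr WT PSC libraries had 29.9, 23.2, 14.8, 39.5 and 39.6 TPM. The transglutaminase gene Tgm2 was the lower one, at 94.7 ± 20.1 TPM with Egfr KO PSCs and 153.5 ± 44.7 TPM with Egfr WT PSCs (log2 fold change -0.65, edgeR adjusted p = 0.440).

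**Figure D5:**
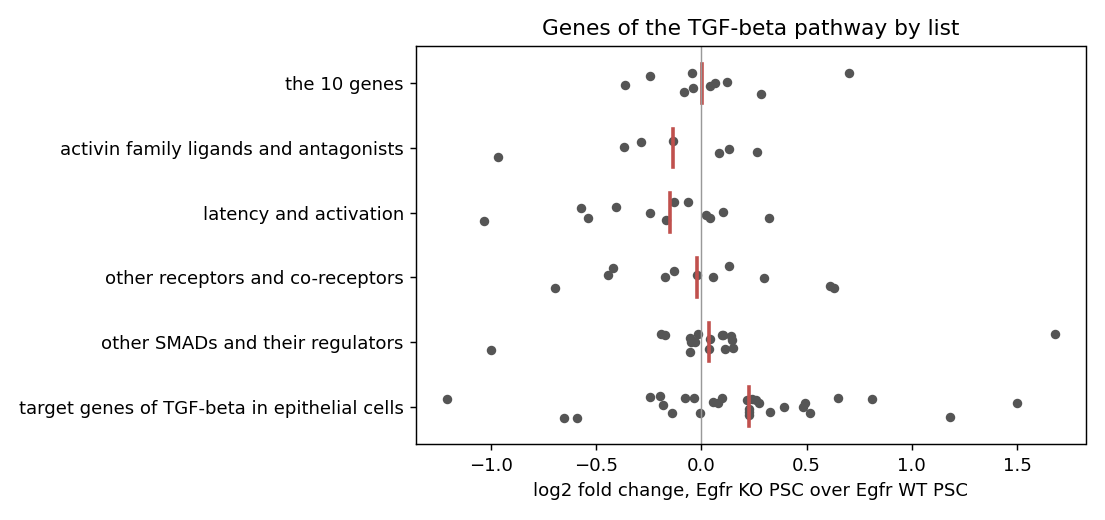
Log2 fold change, Egfr KO PSC over Egfr WT PSC, of each tested gene (points) in the 10 genes and in 5 lists of further pathway genes, with the median of each list as a red line. The medians run from -0.15 in the latency and activation list to 0.23 among target genes, and no gene shown passed the edgeR test over all genes.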

How the data were processed

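The authors deposited one transcript table per library. Per the submitters' processing notes Salmon 1.9.0 and GRCm39 were used. The annotation release, strand setting and sort markers are not stated there. The authors' estimated counts per transcript were deposited without normalisation. The deposited TPM values are scaled to a fixed total in each library, and effective lengths entered 1 alternative. Per the labels' protocols libraries were made with a low-input kit, with PCR cycles set by RNA input and no molecular identifiers, so intervals cover counting error and spread between libraries only.

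Transcripts were named by identifier with GENCODE M21 (GRCm38): 137063 of 147828 matched (92.7%), with 98.1% to 98.7% of the counts, and all 42 transcripts of the 10 genes had the same length in both. Counts were added up within each gene, then rounded. Exons of Tgfb2, Tgfb3 and Tgfbr3 overlap other annotated genes that had at most 17 reads in a library. No pair of libraries agreed within sampling noise (lowest chi-square per degree of freedom 39.2).

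Groups came from the labels, which pair no libraries. edgeR 4.0.16 (R 4.3.3, TMM, minimum count 10) gave the main test, with confidence intervals from its F statistic; DESeq2 1.42.0, limma 3.58.1 voom with sample weights, other scaling, filters, lengths, cell type scores, the number in the file names and leaving out each library were alternatives. The edgeR and permutation steps were tested on simulated or constructed data. Transcript shares used exact permutation tests, and pairs of genes 100000 permutations. Named were the 10 genes, the 4 of lowest p per pathway list, the 3 genes most correlated with each of 3 members, and markers from the first 3 of the epithelial and lymphocyte lists. Id1 was named after its values were seen. The genes, lists and rules were chosen with earlier results of these data known. Of the listed names 1 (Cripto) was not matched.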

Additional observations from a re-analysis of the deposited data

Results flagged for a closer look

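Single libraries far from the other 4 of their group were looked for with Dixon's criterion for 5 libraries in 78 group-wise sets of TPM values and transcript shares, of which 9 were marked. Chance marks about 1 group in 20 where values are normally distributed, which was not checked for these untransformed values. In Egfr KO PSC replicate 4, Inhba was at 319 TPM, against 49.4 to 121 TPM in the others of the group, and Smad7 at 35.8 TPM, against 17.5 to 20.9 TPM. Egfr KO PSC replicate 3 had Fst at 34.3 TPM (others 12.2 to 16.9 TPM), Eng at 8.61 TPM (others 2.54 to 3.67 TPM) and the lowest share of Inhba-202, at 90.6% (others 92.5% to 92.8%). Gdf15 was at 2.88 TPM in Egfr KO PSC replicate 5 (others 0.761 to 1.35 TPM), and Smad9 at 0.198 TPM in Egfr KO PSC replicate 2 (others 0.0707 to 0.0967 TPM). With Egfr WT PSCs, Dcn was at 21.7 TPM in replicate 2 (others 8.08 to 11.7 TPM) and Zfyve9 at 1.19 TPM in replicate 5 (others 0.801 to 0.853 TPM).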

How the results depend on the processing

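No alternative gave any of the 10 genes an adjusted p under 0.05, with the lowest at 0.259 for Tgfbr2 without Egfr KO PSC replicate 1. Of the 190 alternative log2 fold changes 172 kept their sign, among them all 19 each of Tgfbr2, Inhba, Smad3 and Smad7. Signs turned for Tgfb2 with sample-weighted limma voom (0.031), with the fibroblast score (0.38) and with the file-name number (0.16), for Tgfbr1 with that number (0.054) and for Smad2 with the macrophage score (-0.077). Leaving out 1 library, the ranges that crossed 0 were -0.025 to 0.12 for Tgfb1, -0.20 to 0.28 for Tgfb2, -0.18 to 0.041 for Tgfb3, -0.16 to 0.069 for Tgfbr1, -0.61 to 0.016 for Tgfbr3 and -0.037 to 0.13 for Smad2. For the difference in main transcript share, in percentage points, they were -4.90 to 5.92 for Tgfb1, -0.27 to 0.33 for Inhba, -1.48 to 0.29 for Tgfbr1, -0.27 to 2.43 for Tgfbr3 and -3.21 to 0.54 for Smad3. Over all genes edgeR called 0, and 0 to 4 without 1 library; it called 1 with no filter, DESeq2 called 132 and sample-weighted limma voom 3. No paired analysis was possible because the labels pair no libraries across the groups. The replicate numbers used here name libraries within a group and pair none. The file-name numbers recur within a group and so pair no libraries, and they entered only as a factor. Depth limits Tgfb1 and Tgfb2, whose transcript shares rest on few reads.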
